A study of Mus musculus with 8 samples.

Results

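The insulin-like growth factor (IGF) axis was followed in heart RNA of mice through 10 genes, named by symbol: the ligand gene Igf1, the receptor genes Igf1r and Insr, the docking protein genes Irs1 and Irs2, and the binding protein genes Igfbp3, Igfbp4, Igfbp5, Igfbp6 and Igfbp7. All 10 were found among the 49315 genes of the deposited count table and all 10 passed the filter on low counts, which kept 16180 genes. The study compared the sexes in C57BL/6 hearts at 8 weeks of age, with 4 female and 4 male libraries and no treatment or allele given in the labels. C57BL/6 is a common inbred laboratory strain. Whether the libraries of a sex are separate animals, and which part of the heart was taken, is not stated, so p-values measure only the spread between these samples, which may be technical.

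IGF1 is made mainly by the liver under growth hormone and also locally in many tissues, and it signals through the IGF1 receptor, a tyrosine kinase closely related to the insulin receptor. Both receptors phosphorylate the docking proteins IRS1 and IRS2, which recruit PI 3-kinase, activate Akt and keep FoxO transcription factors out of the nucleus. IGF-binding proteins hold IGFs outside the cell, extend their life and control their access to the receptor. In heart muscle the axis is known for physiological growth, glucose uptake and survival.

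Female libraries held 32746054 to 35467832 counts and male libraries 39612848 to 47097765, so depth moved with sex (p = 0.029 by an exact two-sided permutation, the smallest possible here). The 7 cardiomyocyte markers were present in every library, with summed values of 78600 to 86900 CPM (the read count relative to the TMM-scaled total of the library). Male replicate 4 stood apart in its atrial markers, which summed to 438 CPM against 2170 to 2640 CPM in the other 7 libraries, and male replicate 1 in its macrophage markers, at 745 CPM against 349 to 447. All 7 white adipocyte markers were called higher in females, with sums of 72.4 to 133 CPM in females and 13.2 to 39.8 CPM in males. These are bulk libraries, in which fewer cells of a type and less RNA per cell cannot be told apart.

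None of the 10 genes was called different between the sexes. In the quasi-likelihood test of edgeR with Benjamini-Hochberg adjustment over all genes and a threshold of 0.05, 0 members were called, where 3.79% of all genes tested were. DESeq2 and limma-voom also called 0 members, against 6.33% of all genes in DESeq2 (3.59% higher in males, 2.74% in females) and 3.8% in limma-voom. At an unadjusted p below 0.05 there were 3 members, Irs1, Igfbp3 and Igfbp5, beside 19.5% of all genes. That count of members was 1 without female replicate 3 or male replicate 1, and with limma on the deposited normalized values, and 5 with no filter on low counts. In no member were the values of the sexes free of overlap, which held for 12% of all genes. Log2 fold changes are male minus female. They were negative, so lower in males, in 8 of the 10 members and in 50.3% of all genes, with a median of -0.11 over the members and 0 over all genes. The 7 fibroblast markers had a median of -0.13, with 1 called higher in females, and their sums did not overlap between the sexes (2900 to 3090 CPM in females, 2500 to 2870 in males). White adipocyte markers had a median of -2.41 and the 4 brown adipocyte markers one of -1.09. Higher in females were 7 of the white and 2 of the brown markers, where 1.76% of all genes were. The medians were 0 for cardiomyocyte, 0.04 for endothelial and 0.34 for macrophage markers. The part of these cell types in the members' values was not tested. The 95% interval of the log2 fold change lay within 1.5-fold in either direction for all 10 members, as it did for 76.1% of all genes tested. That bound is wider than several differences called below in other genes, such as 1.11-fold in Grb14 and 1.36-fold in Pik3r1.

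**Figure D1:**
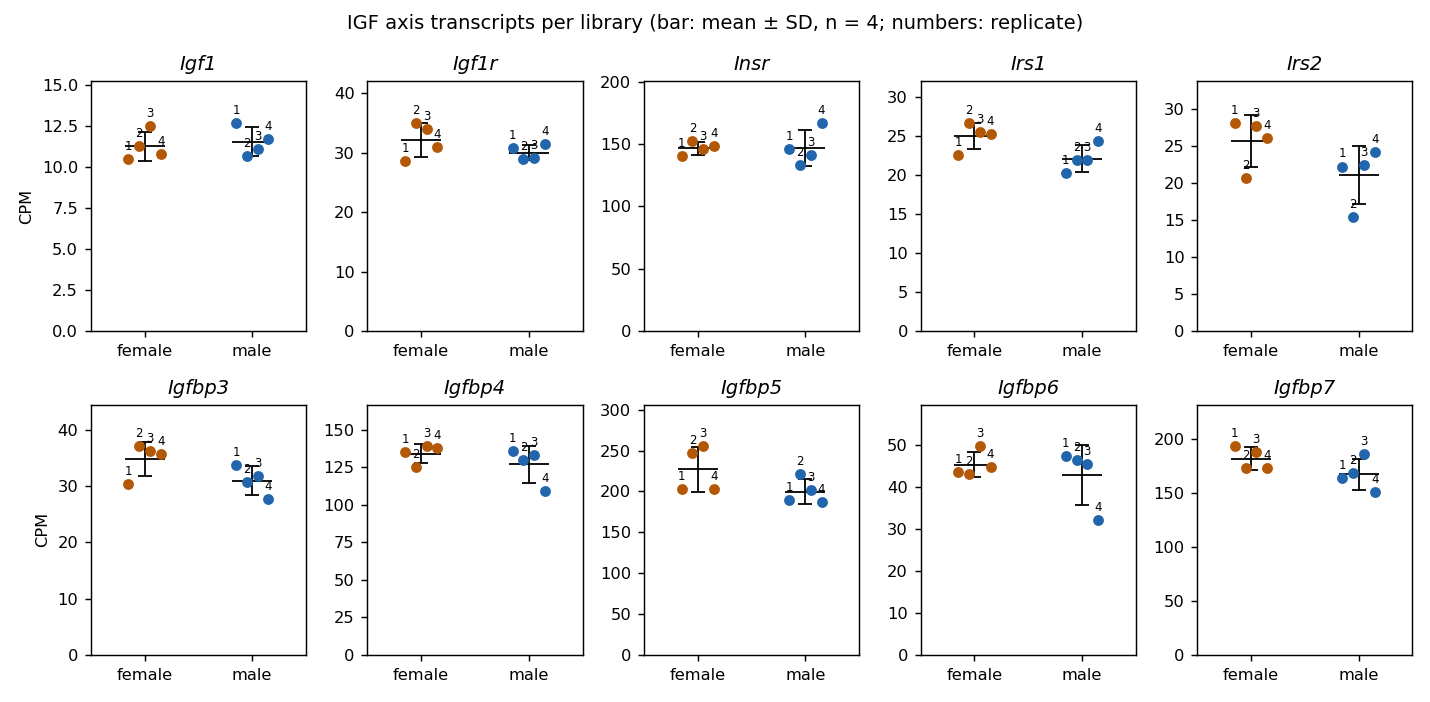
CPM of each of the 10 genes (y axis, from 0) in the 4 female and 4 male libraries (points, numbered by replicate), with the mean and SD of each sex. The points of the sexes overlap for every gene, and male replicate 4 lies lowest for all 5 binding proteins, with Igfbp6 at 32.2 CPM.

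**Figure D2:**
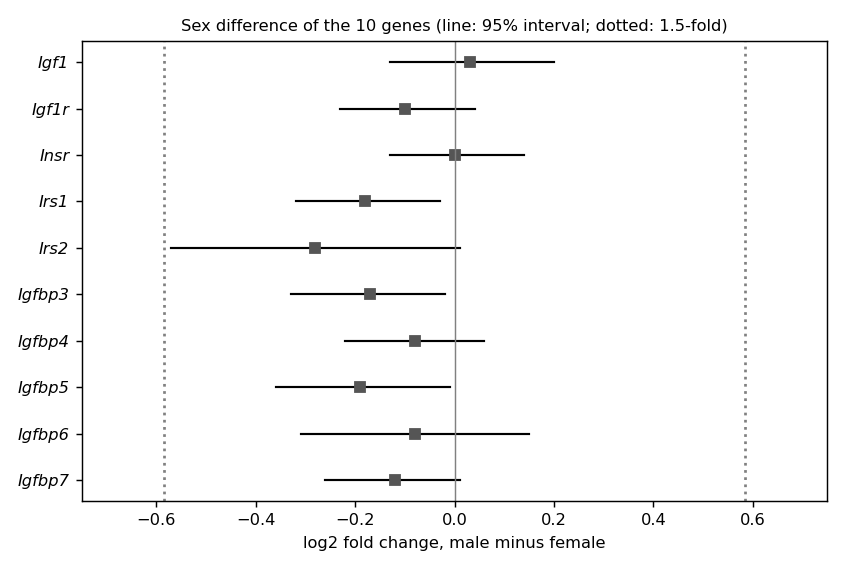
Fitted log2 fold change, male minus female, of each gene (squares) with its 95% interval (lines). All intervals lie between the dotted lines at 1.5-fold, and Irs2 has the widest, from -0.57 to 0.01.

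Igf1, the ligand gene (GRCm38 chromosome 10, 87858265 to 87937042), gave the lowest level of the 10 per length of transcript. It was at 10.5, 11.3, 12.5 and 10.8 CPM in female replicates 1 to 4 and at 12.7, 10.7, 11.1 and 11.7 CPM in male replicates 1 to 4. The values of the sexes interleave. The means were 11.3 ± 0.885 (SD, n = 4) in females and 11.6 ± 0.855 in males, a log2 fold change of 0.03 (95% interval -0.13 to 0.2, edgeR adjusted p = 0.85). The highest value was that of male replicate 1, the library with the highest macrophage sum, and without it the log2 fold change was -0.01 (edgeR adjusted p = 0.95). The part of macrophages in this value was not tested.

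The receptor genes gave no call between the sexes and differed from each other in level. Igf1r (chromosome 7, 67952827 to 68233668) had 28.6, 35, 33.9 and 30.9 CPM in females and 30.7, 28.9, 29 and 31.4 CPM in males. The lowest value of all 8 was a female one, and the 2 highest were female as well. Its log2 fold change was -0.1 (95% interval -0.23 to 0.04, edgeR adjusted p = 0.42). Insr, the insulin receptor gene (chromosome 8, 3122061 to 3279617), had 140, 152, 146 and 148 CPM in females and 146, 133, 141 and 167 CPM in males. Both the highest and the lowest library were male, replicates 4 and 2. The log2 fold change was 0.005 (95% interval -0.13 to 0.14, edgeR adjusted p = 0.98), and it was -0.06 (adjusted p = 0.48) without male replicate 4.

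Levels of different genes can be compared only per length, as CPM per kb of summed exon length. On that scale Insr exceeded Igf1r in every library, by a ratio of 5.26 to 6.49. The mean ratio was 5.6 ± 0.37 in females and 5.97 ± 0.376 in males.

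The docking protein genes held the most variable member, Irs2. IRS1 and IRS2 are both docking proteins of the receptors, and transcription of Irs2 and Insr is known to be raised by FoxO factors when insulin signalling is low. Irs1 (chromosome 1, 82233101 to 82291416) had 22.6, 26.7, 25.5 and 25.2 CPM in females and 20.2, 21.9, 21.9 and 24.4 CPM in males. Of the males, 3 lay below all females and male replicate 4 lay inside the female range. The log2 fold change was -0.18 (95% interval -0.32 to -0.03, edgeR adjusted p = 0.17). Over the fits with 1 library left out, the adjusted p ran from 0.091 without male replicate 4 to 0.35 without female replicate 2.

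Irs2 (chromosome 8, 10984681 to 11008458) had 28.1, 20.6, 27.7 and 26.1 CPM in females and 22.2, 15.4, 22.4 and 24.2 CPM in males. In each sex replicate 2 was the lowest library, and the female one lay below 3 of the 4 males. The means were 25.6 ± 3.48 CPM in females and 21.1 ± 3.9 in males, a log2 fold change of -0.28 (95% interval -0.57 to 0.01, edgeR adjusted p = 0.27). The log2 fold change was -0.37 without female replicate 2 and -0.16 without male replicate 2, with adjusted p of 0.16 and 0.42. The coefficient of variation of Irs2 over the 8 libraries was 18%, against 6.77% to 11.9% in the other 9 members. Of the 8649 genes with a mean of at least 10 CPM, 3.08% varied as much or more, and their median was 5.4%. Per length, Irs2 exceeded Irs1 in all 8 libraries. The ratio was 1.11 and 1.02 in the replicates numbered 2 and 1.44 to 1.8 in the other 6 libraries.

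The 2 docking protein genes also resemble each other upstream of the starts given in a promoter table. The RefSeq promoter table on GRCm38.p6 held 9 of the 10 members, and the 250 bases before the start were searched on both strands for CACGTG, the E-box, and for CAAAACA, a core of insulin-response elements that FoxO factors can bind. The motifs were chosen after the values were seen. Positions are counted from the starts of the promoter table, which can differ from those of the counted genes. On the minus strand, the counted Irs1 starts at 82291416 and its window lies from 82291440 on. The counted Irs2 starts at 11008458 and its window lies from 11008930 on, so the positions in the 2 genes are not on a like footing. The Igf1 window, from 87860861, lies inside the counted gene, which starts at 87858265. The windows of Irs1 (chr1:82291440-82291689, minus strand) and Irs2 (chr8:11008930-11009179, minus strand) are printed to show the arrangement of these 2 motifs, which are in capitals. The second motif stands there as its reverse complement, TGTTTTG.
Irs1: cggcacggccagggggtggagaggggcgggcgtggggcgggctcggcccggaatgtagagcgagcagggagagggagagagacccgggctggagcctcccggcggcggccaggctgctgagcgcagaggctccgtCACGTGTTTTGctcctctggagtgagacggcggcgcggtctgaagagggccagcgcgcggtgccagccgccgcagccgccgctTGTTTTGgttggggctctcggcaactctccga
Irs2: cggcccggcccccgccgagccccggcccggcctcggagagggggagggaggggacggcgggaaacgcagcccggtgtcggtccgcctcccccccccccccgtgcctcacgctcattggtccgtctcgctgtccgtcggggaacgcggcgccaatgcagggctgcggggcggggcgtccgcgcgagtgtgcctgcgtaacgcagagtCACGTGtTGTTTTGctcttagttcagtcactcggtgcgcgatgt
In Irs1 the E-box begins at -115 and the FoxO-type core at -111, so that the motifs share letters, and a second core begins at -32. In Irs2 the E-box begins at -44 and the core at -37. The E-box occurs in 6.02% of the 32851 windows of this length in the table and the core in 5.56%. Their first letters lie at most 10 bases apart in 7 windows (0.0213%), of which 2 are these. That limit lies just above the distances in Irs1 (4) and Irs2 (7), so the share is no independent measure of rarity. The other 7 members with an entry held neither motif. Also searched were 2 general promoter motifs, TATAAA, found in 12.4% of windows, and GGGCGG, found in 32.7%. TATAAA stood at -28 in the window of Igfbp4. In that of Igfbp6 only its reverse complement, TTTATA, was found, farther upstream at -148. GGGCGG stood in the windows of Igf1r, Irs1, Irs2 and Igfbp7. A match of letters is a description of the sequence and says nothing of binding in these hearts.

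The binding protein genes, Igfbp3 apart, stood above all other members per length. Igfbp7 (chromosome 5, 77349240 to 77408041) encodes a secreted protein that binds IGFs weakly and is made by vessels. It had 193, 173, 188 and 173 CPM in females and 164, 168, 186 and 151 CPM in males. Male replicate 3 reached into the female range and the other 3 males lay below it (log2 fold change -0.12, 95% interval -0.26 to 0.01, edgeR adjusted p = 0.31). Exons of Igfbp7 overlap those of Polr2b on the opposite strand, and reads of the overlap cannot be told apart because the strand setting of the counting is not given.

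Igfbp5 (chromosome 1, 72857932 to 72874884) encodes a binding protein that also attaches to extracellular matrix. It had 203, 247, 255 and 203 CPM in females and 189, 221, 202 and 187 CPM in males. Female replicates 2 and 3 were the highest of all, and male replicate 2 lay above the other 2 females (log2 fold change -0.19, 95% interval -0.36 to -0.01, edgeR adjusted p = 0.24). Igfbp3 (chromosome 11, 7206086 to 7213923), whose protein is the main IGF carrier of blood plasma, had 30.4, 37, 36.2 and 35.6 CPM in females and 33.7, 30.7, 31.7 and 27.6 CPM in males. Female replicate 1 lay among the males and the other 3 females above them. The log2 fold change of Igfbp3 was -0.17 (95% interval -0.33 to -0.02, edgeR adjusted p = 0.21), and the adjusted p ran from 0.084 without female replicate 1 to 0.4 without female replicate 2.

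Igfbp4 (chromosome 11, 99041244 to 99054392), whose protein inhibits IGF action until the protease PAPP-A cuts it, had 135, 125, 139 and 138 CPM in females and 136, 130, 133 and 109 CPM in males. Apart from male replicate 4, every male value lay inside the female range (log2 fold change -0.08, 95% interval -0.22 to 0.06, edgeR adjusted p = 0.55). Igfbp6 (chromosome 15, 102144362 to 102149511), whose protein prefers IGF2 over IGF1, had 43.6, 43.1, 49.6 and 44.8 CPM in females and 47.3, 46.4, 45.5 and 32.2 CPM in males. Again only male replicate 4 fell outside the female range. The log2 fold change of Igfbp6 was -0.08 (95% interval -0.31 to 0.15, edgeR adjusted p = 0.73), and it was 0.04 (adjusted p = 0.76) without male replicate 4, which turns its direction.

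Male replicate 4 was thus the lowest of the 8 libraries for 5 of the 5 binding protein genes, and for 0 of the other 5 members. It was the lowest for 14.4% of all genes tested. Its values lay 8.07% (Igfbp5) to 30.6% (Igfbp6) below the means of the other 3 males. For Insr it was the highest library, as it was for 13.8% of all genes. In the same library the fibroblast markers summed to 2500 CPM, against 2800 to 2870 in the other males and 2900 to 3090 in the females, and the 6 epicardial and mesothelial markers to 74.6 CPM, against 77 to 100. Its endothelial sum of 865 CPM lay within the 790 to 913 CPM of the others, and so did the 1160 CPM of its pericyte and smooth muscle markers, within 1100 to 1190. None of the markers of these 4 lists or of the atrial list had 0 counts, and their part in the binding protein values was not tested. Without this library the log2 fold changes of Igfbp3, Igfbp4, Igfbp5 and Igfbp7 were -0.12, -0.01, -0.16 and -0.07, with edgeR adjusted p from 0.36 to 0.92.

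**Figure D3:**
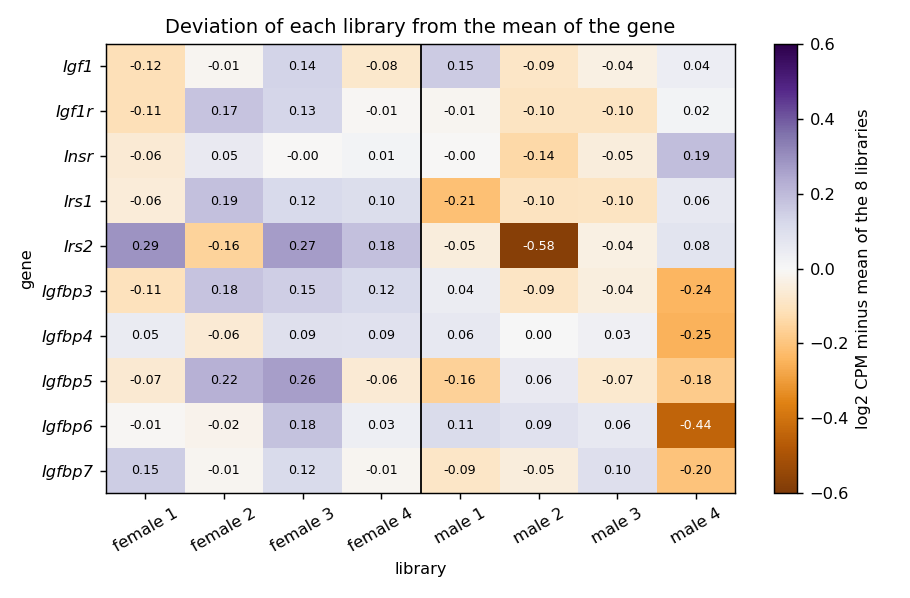
Log2 CPM of each gene (rows) in each library (columns) minus its mean over the 8 libraries. Male replicate 4 is below the mean for the 5 binding proteins, to -0.44 for Igfbp6, and male replicate 2 is at -0.58 for Irs2.

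Per length, the order from high to low was Igfbp7, Igfbp6, Igfbp5, Igfbp4, Insr, Igfbp3, Irs2, Irs1, Igf1r and Igf1, with means over 8 libraries from 144 ± 11.7 down to 1.15 ± 0.0827 CPM per kb. Igfbp7 stood clear of the rest, at 125 to 160 CPM per kb against 28.9 to 44.6 for Igfbp6. The ranges of Igfbp6 and Igfbp5 (31.2 to 42.4) overlapped and their order held in 6 of 8 libraries. Those of Igfbp5 and Igfbp4 (24.8 to 31.4) touched, with Igfbp5 above in all 8. Insr (9.68 to 12.1) and Igfbp3 (8.83 to 11.8) did not differ beyond their spread, with Insr above in 3 libraries. The ranges of Irs2 (2.43 to 4.44) and Irs1 (2.21 to 2.92) overlapped, while Igf1r (1.7 to 2.08) lay below Irs1 and above Igf1 (1.06 to 1.28) in all libraries. Exon lengths are those of all annotated exons joined, so a gene expressed mainly as a short transcript has its level understated.

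**Figure D4:**
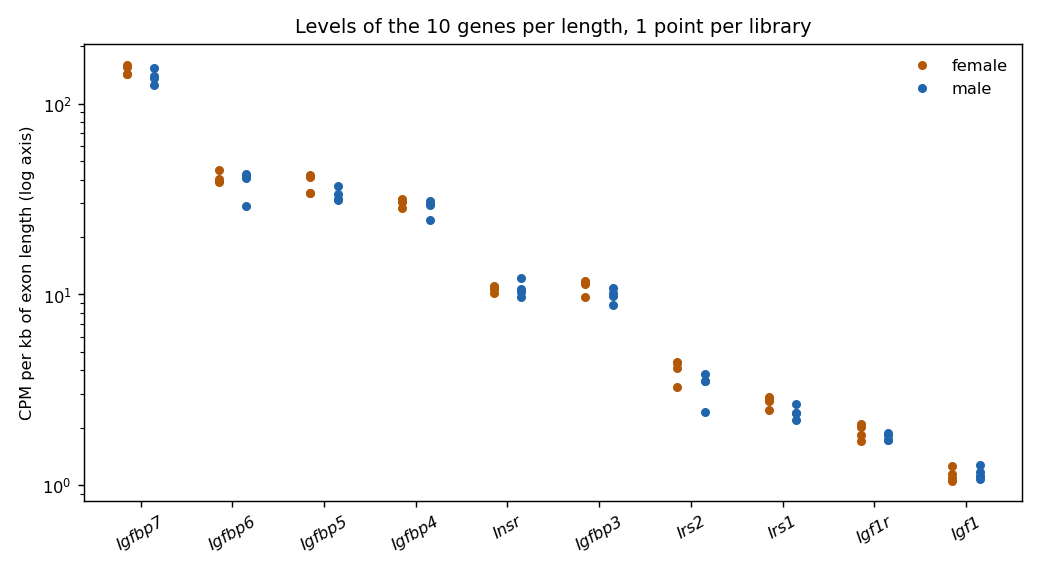
CPM per kb of summed exon length (y axis, log scale) of the 10 genes, with 1 point per library and the sexes side by side. Igfbp7 is highest, at 125 to 160 CPM per kb, and Igf1 lowest, at 1.06 to 1.28.

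Of the summed level of the 5 binding proteins per length, Igfbp7 made up 55.6% ± 1.77 (SD over 8 libraries), Igfbp6 15.2% ± 1.15, Igfbp5 13.7% ± 1.25, Igfbp4 11.4% ± 0.512 and Igfbp3 4.05% ± 0.326. The share of Igfbp7 was 55.6% ± 1.99 in females and 55.6% ± 1.84 in males (n = 4 each). The sum itself ranged from 260 to 286 CPM per kb in females and from 219 to 269 in males, with male replicate 4 at the low end.

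Further genes were taken from lists of 87 genes, of which 82 were tested. These lists, called pathway lists in this text, also hold 9 glucocorticoid-responsive genes that are not part of the IGF pathway. Of the 82 genes, 8 were called higher in males and 4 higher in females, where 2.03% and 1.76% of all genes were. Their median log2 fold change was 0.01. Fkbp5, among the calls higher in males, and Dusp1, among those higher in females, are glucocorticoid-responsive genes. The lists were chosen with earlier results of these data known, so these counts are no measure of an excess over all genes. Of 5 tested ligand, receptor and binder genes beyond the members 0 were called by edgeR, DESeq2 and limma-voom (median -0.02). At an unadjusted p below 0.05 in edgeR there was 1, beside 19.5% of all genes. The smallest p was that of Igfbpl1, an IGFBP-like gene, with female and male means of 2.07 ± 0.198 and 1.42 ± 0.533 CPM (log2 fold change -0.55, edgeR adjusted p = 0.23, and -0.34 with 0.33 without male replicate 4). Too low to test were Ins1 with 0 counts in all libraries, which allows up to 3 counts, Ins2 with 1 count in a male library, Insrr with 12 counts in females and 11 in males, and Igfbp1 with 6 in each sex. Of 5 genes for binding protein proteases and the stanniocalcins that inhibit them 0 were called by edgeR, DESeq2 and limma-voom (median 0.03). At an unadjusted p below 0.05 in edgeR there were 0, beside 19.5% of all genes. Stc2 had the smallest p (log2 fold change 0.1, edgeR adjusted p = 0.28).

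Growth hormone receptor signalling, the main inducer of Igf1 in liver, gave 1 call among 6 genes (median -0.14). Cish, a STAT5-induced inhibitor of cytokine receptors, had 106, 87.7, 123 and 107 CPM in females and 81.7, 87, 73 and 75.5 CPM in males. All males lay below all females, the closest pair by less than 1 CPM. Cish was 1.34-fold higher in females (log2 fold change -0.42, SE 0.09, edgeR adjusted p = 0.025), and the call ended without any 1 of female replicates 1, 3 or 4 or male replicates 3 or 4 (0.054 to 0.075). Named after their values were seen, Socs2 (-0.25, adjusted p = 0.13) and Stat5a (-0.19, adjusted p = 0.058) had negative log2 fold changes and Ghr, the receptor gene, 0.06 (adjusted p = 0.36). The remaining genes of the list were Stat5b, at -0.08 (edgeR adjusted p = 0.31), and Jak2, at 0.01 (edgeR adjusted p = 0.96).

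Among 13 adaptor and inhibitor genes at the receptors, 1 was higher in males and 2 in females (median -0.06), and Irs4, with 2 counts in all, was not tested. Grb14, an inhibitor of the insulin receptor kinase, had 173, 166, 172 and 172 CPM in females and 187, 190, 190 and 187 CPM in males. The rise was small, 1.11-fold, and without overlap (log2 fold change 0.15, SE 0.03, edgeR adjusted p = 0.029). The call of Grb14 stayed only without male replicate 4 (0.046) and ended without each of the other 7 libraries in turn (up to 0.086, without male replicate 3). Gab1, a docking protein, was 1.13-fold higher in females (adjusted p = 0.032), a call that ended without any 1 of female replicates 2 or 3 or male replicates 1, 2 or 3 (0.064 to 0.1). Sh2b2, an adaptor of the insulin receptor, was 2.03-fold higher in females at 1.95 ± 0.452 CPM against 0.954 ± 0.213 (adjusted p = 0.02), a call that ended without female replicate 3, male replicate 2 or male replicate 3 (0.051 to 0.062). White adipocyte markers moved the same way as Gab1, Sh2b2 and Cish, and their part was not tested.

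Of 12 PI 3-kinase and Akt genes, 2 were called, both higher in males (median -0.05). Pik3r1, the regulatory subunit that docks on IRS proteins, had 121, 112, 138 and 125 CPM in females and 150, 146, 177 and 201 CPM in males. Every male exceeded every female (1.36-fold, log2 fold change 0.44, SE 0.1, edgeR adjusted p = 0.027). This call ended without any 1 of female replicates 1, 2 or 4 or male replicate 3 (0.062 to 0.078). Of 14 mTOR and translation genes 0 were called in edgeR and limma-voom (median 0.05). DESeq2 called 2, higher in males, where it called 3.59% of all genes higher in males. At an unadjusted p below 0.05 in edgeR there were 3, beside 19.5% of all genes. Tsc2, an mTOR inhibitor, had the smallest p (log2 fold change 0.15, adjusted p = 0.068 by edgeR, 0.019 by DESeq2).

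FoxO genes and FoxO targets gave 4 calls, all higher in males, where 2.03% of all genes tested were called higher in males. The sums of 5 hepatocyte markers (25.7 to 30.7 CPM in females, 38.4 to 45.7 in males, 1 marker called) and the mitochondrially encoded share of counts (9.96% to 11.4% against 12.1% to 12.5%) moved the same way without overlap, and their part was not tested. Of 6 FoxO and GSK3 genes 1 was called (median 0.02). Foxo3 had 114, 99.2, 118 and 108 CPM in females and 140, 119, 146 and 171 CPM in males, a 1.31-fold rise (log2 fold change 0.39, SE 0.09, edgeR adjusted p = 0.04). The lowest male exceeded the highest female narrowly, and the call stayed only without male replicate 2 (0.011), with adjusted p of 0.055 to 0.11 without each of the other 7 libraries. Of 12 known FoxO targets 3 were higher in males and 0 in females (median 0.16). DESeq2 called 5 of them and limma-voom 3, all higher in males, where 3.59% and 2.08% of all genes were. Sesn1, a sestrin that restrains mTORC1, was 1.32-fold higher (means of 116 ± 4.49 CPM in females against 153 ± 14.4 in males, adjusted p = 0.0063), a call kept in all 8 fits that left 1 library out. Bcl6, a transcriptional repressor, was 1.62-fold higher (adjusted p = 0.022), a call that ended without female replicate 2, male replicate 3 or male replicate 4 (0.051 to 0.067). Fbxo32, the muscle ubiquitin ligase atrogin-1, was 1.3-fold higher (adjusted p = 0.036), a call that ended without male replicate 3 or any 1 of the 4 females (0.057 to 0.096). Male replicate 4 was the highest library for Foxo3 (171 CPM), Sesn1 (169 CPM) and Fbxo32 (279 CPM), as it was for 13.8% of all genes. Without it the log2 fold changes of Foxo3, Sesn1, Fbxo32 and Bcl6 were 0.3, 0.34, 0.27 and 0.66. With all 8 libraries they were 0.39, 0.4, 0.38 and 0.7. Insr and Irs2, which FoxO factors also raise, were not among the calls.

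Of 9 glucocorticoid-responsive genes, listed because glucocorticoids act on several genes of this axis, 1 was higher in males and 1 in females (median 0.05). Fkbp5, a co-chaperone of steroid receptors, had 13.9, 12.1, 21.4 and 20.3 CPM in females and 58.5, 45.1, 60.4 and 71.4 CPM in males. The sexes stood far apart (log2 fold change 1.8, SE 0.17, edgeR adjusted p = 3e-04). Dusp1, a phosphatase of MAP kinases, was 1.35-fold higher in females (adjusted p = 0.00095). Both calls stayed whichever 1 of the 8 libraries was left out.

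**Figure D5:**
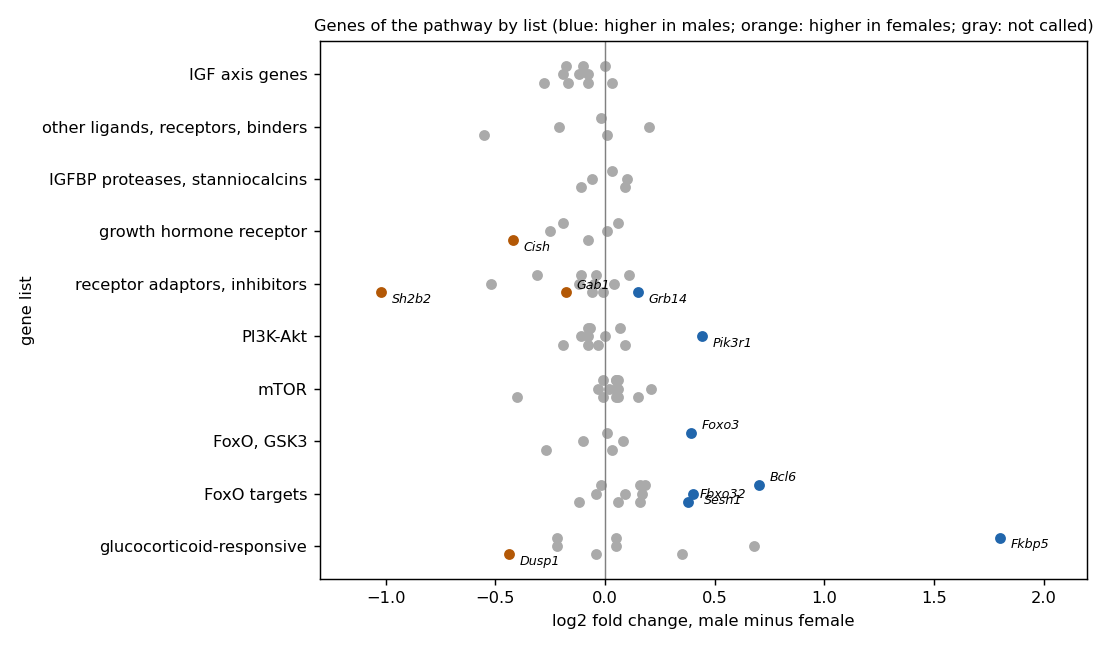
Log2 fold change, male minus female (x axis), of the tested genes (points) by list (rows), with 1 called gene not shown. The 10 IGF axis genes lie between -0.28 and 0.03 with no call (3.79% of all genes were called), and the called genes shown are named beside their points, with Fkbp5 farthest from 0, at 1.8.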

How the data were processed

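Trizol was used to extract total RNA from hearts and an Illumina TruSeq kit to build the libraries, per the labels' protocols. The authors deposited raw counts per gene, for the series and per library (100% identical), and a normalized signal, which the values show to be each count over a size factor of the library (0.863 to 1.2). Of the signal values 100% came out whole within 0.01, for 16160 genes. Trimmomatic 0.36, STAR 2.5.2b, featureCounts of Subread 1.5.2 and GRCm38 (mm10) stand in the submitters' processing notes without order. How multi-mapping reads and strand were handled, and which annotation version was used, is not given in the sources used here. The single tables also give the summed exon length of each gene.

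Of the gene IDs 48970 matched a symbol in the GENCODE-based table. Low genes were dropped by filterByExpr (minimum count 10, minimum total 15), libraries were scaled by TMM and genes were tested, male minus female, with the quasi-likelihood test of edgeR 4.0.16 in R 4.3.3, with limma 3.58.1 and DESeq2 1.42.0 as alternatives. The SE was taken as |log2 fold change| over the root of F. 1 count was worth 0.0218 to 0.0302 CPM, and the members had 348 to 9246 counts per library. No pair of libraries of a sex agreed within sampling noise (chi-square per gene 8.49 to 27.2, where 1 is sampling noise). The fit was tested on simulated data.

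The members and gene lists were chosen with earlier results of these data known. All members are named, and from each further list the called genes, up to 4 by smallest p, or, in a list with no call, the gene of smallest p. The values of 1 called gene are not reported here. Genes with a pattern like that of a called member were to be named, which gave none. Alternatives were other scalings and filters, DESeq2, limma-voom, a replicate block, leaving out each library, thinning to the smallest total, removal of mitochondrially encoded genes and limma on log2 of the deposited signal plus 1. A fit on the reads recovered from the signal was added after seeing the data.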

Additional observations from a re-analysis of the deposited data

Results flagged for a closer look

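In 50 groups of 4 libraries (25 genes in each sex), the gap of the highest or lowest library to its nearest neighbour was set against the range of the group, with a ratio above the 95% critical value of Dixon's test marking a library far from the others. Chance marks about 1 in 20 groups, and 2 groups were marked. Igfbp6 was at 32.2 CPM in male replicate 4 and at 45.5 to 47.3 CPM in the other males (ratio 0.884). Bcl6 was at 32.1 CPM in male replicate 2 and at 44.2 to 44.3 CPM in the other males (ratio 0.992).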

How the results depend on the processing

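No setting called any of the 10 IGF axis genes except the replicate block, where 1 was called, Irs2 (log2 fold change -0.29, edgeR adjusted p = 0.042). The replicate numbers did not pair the samples: the correlations of deviations of same-numbered libraries lay between -0.05 and 0.05, so a call under the block is given here only, and 0 of 4 female libraries correlated best with the male library of their number. The block gave 8 and 1 pathway calls higher in males and females in place of 8 and 4. Directions that turned, all with intervals that span 0, were those of Igf1 without male replicate 1 (-0.013, with 0.087 at most without another library), of Igfbp6 without male replicate 4 (0.036, with -0.131 at the lowest), and of Insr with upper quartile scaling (-0.001), with limma on the deposited signal (-0.001), without female replicate 1 (-0.016) and without male replicate 4 (-0.062). With a library left out, calls over all genes ranged from 315 to 490, against 613, pathway calls higher in males from 2 to 7 (2 without male replicate 3, 3 without female replicate 1 or 2, 4 without female replicate 3, 5 without female replicate 4), and those higher in females from 1 to 4 (1 without female replicate 3, 2 without male replicate 2 or 3). Limma on the deposited signal called 1 and 1 genes of the pathway lists, the glucocorticoid-responsive Fkbp5 and Dusp1, and 172 genes in all. No filter gave 8 pathway genes higher in females, and DESeq2 called 964 genes. The recovered reads gave 604 calls over all genes, with 8 and 4 in the pathway lists. Of these shifts, those with a library left out rest on fewer samples, and the cause of the others was not tested. Without division by length, the shares of Igfbp3, Igfbp4, Igfbp5, Igfbp6 and Igfbp7 were 5.52%, 22%, 35.8%, 7.39% and 29.3%, which puts Igfbp5 first; that follows from the lengths. With 4 libraries a sex, the fit does not tell apart the sizes of difference that lie inside the interval given for each gene.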

Other observations

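Igf2, named after its values were seen, is the second IGF ligand gene and an imprinted gene best known from fetal growth. It had 49.5, 61.8, 64 and 49 CPM in females and 49.9, 54.7, 49.3 and 39.8 CPM in males, with male replicate 4 lowest, as for the binding proteins (log2 fold change -0.21, 95% interval -0.44 to 0.02, edgeR adjusted p = 0.29). Per length it stood at 6.96 to 11.2 CPM per kb against 1.06 to 1.28 for Igf1. Igf2r, the receptor that clears IGF2, had 240 to 284 CPM over the 8 libraries and a log2 fold change of 0.01 (95% interval -0.12 to 0.14, adjusted p = 0.96).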
